A study of Rattus norvegicus with 18 samples.

Results

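The ND genes are the genes of the mitochondrial genome that encode subunits of respiratory complex I, and here they are the features that the deposited table places on chromosome MT under a name starting with ND. The rule gave 7 genes (ND1, ND2, ND3, ND4L, ND4, ND5 and ND6) of 29 listed features, beside 5 other mitochondrial genes (COX1, COX2, COX3, ATP6 and CYTB), 16 nuclear genes and 1 unnamed feature on chromosome 20. The 18 libraries were made from kidney RNA of male rats, 23 weeks old, with 3 libraries in each of 6 groups. NC were healthy rats on water, and NH were healthy rats given plantain flour at a dose labelled high. Diabetic rats received water (DM) or plantain flour at 1 g (LP), 2 g (MP) or 4 g (HP) per kg body weight. The sources used here do not give the way diabetes was brought about or how many g per kg NH received. The study asked how the flour bears on kidney transcripts in diabetes, and the ND genes are described below over these groups, against one another and against the other mitochondrial genes.

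Complex I takes electrons from NADH, passes them to ubiquinone and pumps protons across the inner mitochondrial membrane. Its membrane arm is built from the ND subunits, while the arm that reaches into the matrix is encoded in the nucleus. ND1 sits where the arms meet and helps to form the ubiquinone pocket, ND3 holds a loop close to that pocket, and ND2, ND4 and ND5 are the antiporter-like subunits of the proton path. ND4L and ND6 are small membrane subunits between ND1 and ND2. The mitochondrial genome is transcribed from each strand as long RNAs that are cut into messengers, and ND4L and ND4 share a messenger. Kidney tubules, above all the proximal tubule, are among the tissues richest in mitochondria.

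The positions are given as deposited, on the rat mitochondrial chromosome MT, of a build that the sources used here do not name. ND1 (ENSRNOG00000030644) ran from 2740 to 3694, ND2 (ENSRNOG00000031033) from 3904 to 4942 and ND3 (ENSRNOG00000033615) from 9451 to 9798. ND4L (ENSRNOG00000031053) ran from 9870 to 10166, ND4 (ENSRNOG00000029707) from 10160 to 11537 and ND5 (ENSRNOG00000029971) from 11736 to 13565, all on the plus strand. ND6 (ENSRNOG00000029042) lay on the minus strand from 13543 to 14061. Each gene is 1 unbroken interval, with lengths from 297 bases in ND4L to 1830 bases in ND5.

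Neighbouring ND genes overlapped at 2 places. ND4L and ND4 shared 7 bases on the same strand, which is 2.36% of ND4L and 0.508% of ND4. ND5 and ND6 shared 23 bases on opposite strands, which is 1.26% of ND5 and 4.43% of ND6. The library kit does not mark strand, so reads from ND5 and from ND6 cannot be told apart where they overlap, and neither can an antisense transcript across the rest of ND6. The sources used here do not say how a read in an overlap was counted.

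Per base of gene, the ND genes kept nearly the same order in every library, with ND1 highest and ND4 lowest. The order ND1, ND2, ND4L, ND3, ND5, ND6, ND4 held in 16 of 18 libraries. In DM replicate 2, ND3 stood above ND4L, and in HP replicate 1, ND5 stood above ND3. ND1 had a mean of 510 counts per base in NC and 248 in DM, ND2 492 and 214, and ND4L 246 and 116. ND3 had 198 counts per base in NC and 111 in DM, ND5 102 and 52.9, ND6 84.5 and 45.2, and ND4 44.0 and 22.4. Next to each other in this order, ND1 exceeded ND2 by a per-base ratio of 1.03 to 1.20 in all 18 libraries and ND5 exceeded ND6 by 1.10 to 1.43, whereas the ratio of ND3 to ND4L ran from 0.465 to 1.04. In every group all 7 ND genes had a lower per-base mean than each of the 5 other mitochondrial genes. Library totals differ and the depth of the libraries is unknown, so a per-base level compares genes within a library, not libraries with one another.

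**Figure D1:**
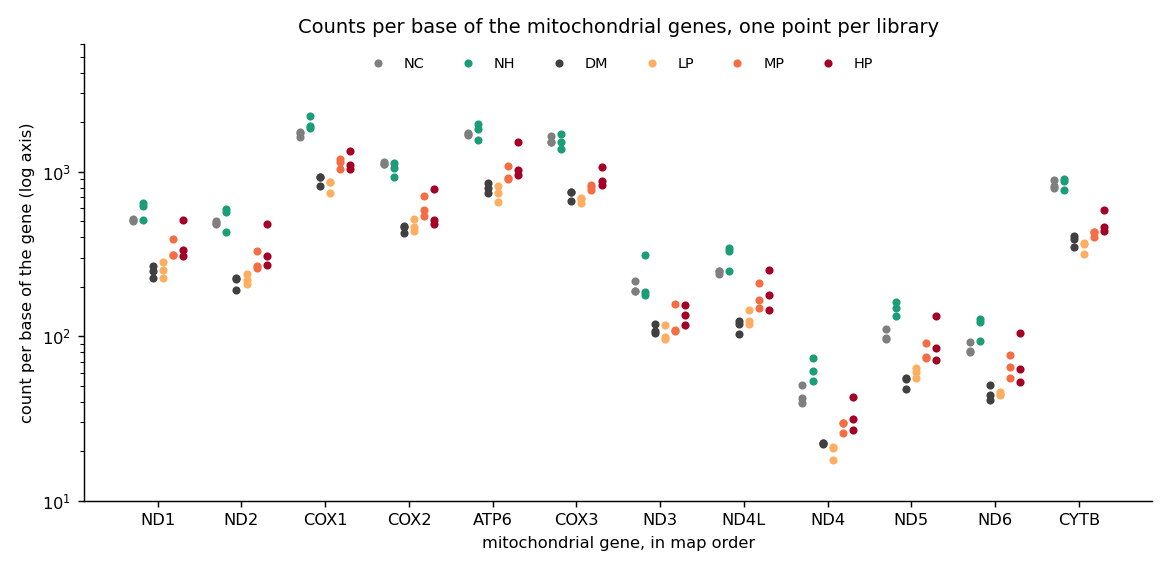
Count per base of gene (vertical log axis) for the 12 mitochondrial genes in map order, with 1 point per library coloured by group (n = 3 libraries per group). ND4 is the lowest gene in all 18 libraries, and the order of the 7 ND genes is the same in 16 of 18 libraries.

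ND4 stood apart from the gene it shares a messenger with. The per-base ratio of ND4L to ND4 was between 4.51 and 7.04 with a median of 5.68 over 18 libraries. The table also holds an unnamed feature of 1529 bases on chromosome 20 (19483978 to 19485846, plus strand), which its deposited description matches to the protein of ND4. A nuclear stretch that resembles a mitochondrial gene can take reads of that gene, and the sources used here do not give the setting for reads with several matches. ND4 counts are therefore uncertain. They are given below both alone and added to this feature in the comparisons of groups, but only alone in the permutation tests.

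Because the mitochondrial counts as a whole differ between groups, each ND gene was set against the summed counts of COX1, COX2, COX3, ATP6 and CYTB of the same library, as a percent of them. This ratio needs no scaling between libraries. Most of the ND genes were low beside this sum: over 18 libraries the medians were 7.71% for ND1, 7.53% for ND2, 3.54% for ND5, 1.19% for ND4L, 1.08% for ND3, 0.999% for ND4 and 0.757% for ND6. In bulk kidney, fewer cells of a type and less RNA per cell cannot be told apart.

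ND5, the antiporter-like subunit at the far end of the membrane arm, was higher in flour-fed than in water-fed rats, whether diabetic or healthy. In healthy water-fed rats (NC) ND5 reached 2.63, 2.74 and 2.91% of the other mitochondrial counts, and in healthy flour-fed rats (NH) 4.20, 3.70 and 3.45%. In water-fed diabetic rats (DM) it reached 3.02, 2.93 and 3.03%. At the low dose (LP) it reached 3.72, 3.64 and 3.55%, at the middle dose (MP) 3.96, 3.48 and 3.70%, and at the high dose (HP) 4.75, 3.94 and 3.53%. All 12 flour-fed libraries lay above all 6 water-fed ones. The water-fed means were 2.76 ± 0.141% for NC and 2.99 ± 0.0523% for DM. The flour-fed means were 3.79 ± 0.381% for NH, 3.64 ± 0.0856% for LP, 3.71 ± 0.238% for MP and 4.07 ± 0.620% for HP, where the spread was widest (SD, n = 3 throughout).

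ND4L, one of the small membrane subunits, followed the same division with a narrower gap. It stood at 1.11, 1.08 and 1.06% in NC and at 1.41, 1.12 and 1.30% in NH. The DM libraries held 1.09, 1.04 and 1.06%, LP 1.28, 1.32 and 1.18%, MP 1.49, 1.26 and 1.21%, and HP 1.46, 1.34 and 1.15%. The lowest flour-fed library (NH replicate 2, 1.12%) lay just above the highest water-fed one (NC replicate 1, 1.11%). ND4L is the shortest ND gene.

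**Figure D2:**
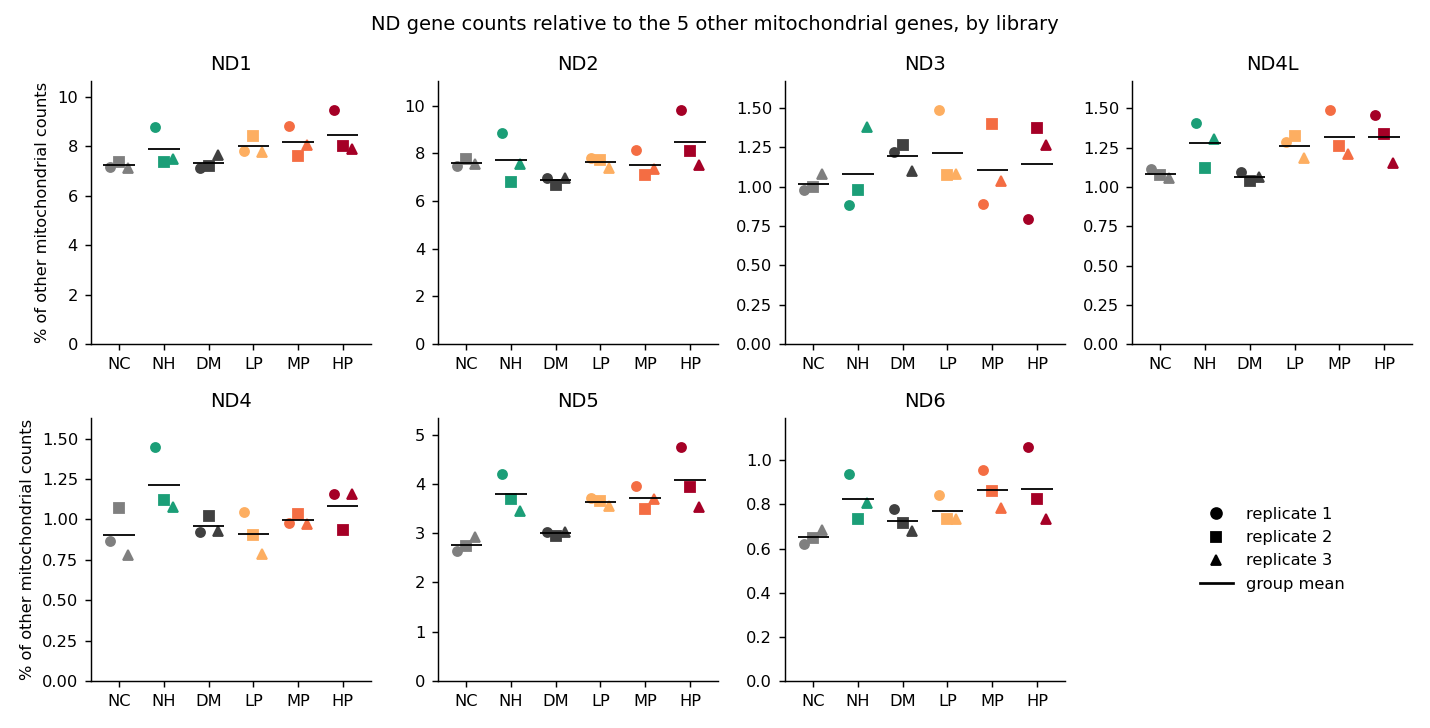
Counts of each ND gene as a percent of the summed counts of the 5 other mitochondrial genes (vertical axes from 0, differing between panels) in the 6 groups. Points are libraries with a marker for each replicate number, and lines are group means of 3 libraries. In ND5 the 12 flour-fed libraries (NH, LP, MP, HP) lie at 3.45% or more and the 6 water-fed ones (NC, DM) at 3.03% or less.

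Across the 12 flour-fed and 6 water-fed libraries, with the labels permuted within diabetic and within healthy rats, 4 of 7 ND genes were higher with flour. In all, 12 of 29 features passed this test in either direction (41.4%). ND5 averaged 3.80 ± 0.371% with flour and 2.88 ± 0.159% with water (SD, n = 12 and 6), a log2 difference of 0.40. Its two-sided exact permutation p of 0.0002273 is the smallest that the 4400 splits can give (adjusted p = 0.0033 over 29 features). ND4L differed by 0.26 on the log2 scale (exact permutation, adjusted p = 0.0033), ND6 by 0.27 (adjusted p = 0.0205) and ND1 by 0.14 (adjusted p = 0.0198). ND5 and ND4L were the only features of 29 whose flour-fed and water-fed libraries did not overlap (6.9% of features). A feature whose diabetic and healthy libraries do not overlap, such as Gpx3 or Pck1, could not separate in this way. The calls of ND5 and ND4L held when any 1 library was left out. ND1 lost its call without NC replicate 3, DM replicate 1 or DM replicate 2 (adjusted p of 0.0503, 0.0551 and 0.0501), and ND6 without DM replicate 2 or 3 (0.0501 and 0.0575). This comparison was chosen after the data had been seen.

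ND2, ND3 and ND4 did not pass that test. ND2, an antiporter-like subunit, differed by 0.11 (exact permutation, adjusted p = 0.199) and ND4, without the unnamed feature, by 0.24 (adjusted p = 0.140). ND3 differed by -0.01 (adjusted p = 0.941) and had the widest spread within groups, with a pooled SD of 0.286 on the log2 scale against 0.0998 for ND1 and 0.118 for ND5. The libraries of HP, for example, held ND3 at 0.794, 1.37 and 1.26% of the other mitochondrial counts and those of NH at 0.884, 0.978 and 1.38%, whereas NC held 0.979, 0.999 and 1.08%.

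The groups were also compared one by one with edgeR, using the summed counts of the 5 other mitochondrial genes as the library size and adjusting over 29 features. LP, MP and HP were each compared with the same 3 DM libraries. At the low dose ND5 alone of 7 ND genes rose, by 0.28 on the log2 scale (SE 0.094, adjusted p = 0.031), against 31.0% of all features called in either direction (7 higher, 2 lower). This call was lost when any 1 of the 6 libraries was left out, with changes from 0.27 to 0.30. ND4L differed by 0.25 (SE 0.098, adjusted p = 0.0622). The 4 genes ND1, ND2, ND5 and ND4L had no overlap between LP and DM libraries, beside 41.4% of features.

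At the middle dose ND5 rose by 0.31 (SE 0.094, edgeR adjusted p = 0.0149) and ND4L by 0.31 (SE 0.098, adjusted p = 0.0176), 2 of 7 ND genes beside 51.7% of all features called in either direction (6 higher, 9 lower). Each lost its call without DM replicate 2 or MP replicate 1. In an edgeR fit of all 18 libraries with the replicate number as a block, ND6 passed as well (0.26, adjusted p = 0.0353). That block gives all 6 groups the same replicate effects, so it is not a paired test of DM and MP. ND2, ND5, ND4L and ND6 had no overlap between MP and DM, beside 31.0% of features.

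At the high dose 3 of 7 ND genes rose, beside 41.4% of all features called in either direction (3 higher, 9 lower). ND5 rose by 0.44 (SE 0.095, edgeR adjusted p = 0.0031), which is 1.36-fold, and held this call when any 1 library was left out (0.32 to 0.54). ND2 rose by 0.30 (SE 0.098, adjusted p = 0.0283) and ND4L by 0.31 (SE 0.098, adjusted p = 0.0283), and both lost the call without DM replicate 1, DM replicate 2 or HP replicate 1. ND1, ND2, ND5 and ND4L had no overlap between HP and DM, beside 41.4% of features. HP replicate 1 was the highest library of its group for 5 of 7 ND genes, with ND2 at 9.81% against 8.10 and 7.51% in the other HP libraries, and ND6 at 1.06% against 0.824 and 0.733%.

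In healthy rats the flour went with a rise of 3 of 7 ND genes, beside 51.7% of all features called in either direction (4 higher, 11 lower). ND5 rose by 0.46 (SE 0.095, edgeR adjusted p = 0.00081), 1.37-fold, and held without any 1 library (0.37 to 0.52). ND4 rose by 0.43 (SE 0.138, adjusted p = 0.0185) and ND6 by 0.34 (SE 0.126, adjusted p = 0.0307). ND4 lost its call without NC replicate 1, NC replicate 3 or NH replicate 1, and ND6 without NC replicate 1, NC replicate 2, NH replicate 1 or NH replicate 3. ND5, ND4L, ND4 and ND6 had no overlap between NH and NC, beside 34.5% of features. NH replicate 1 was the highest library of its group for 6 of 7 ND genes, ND3 being the exception.

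The flour effect on ND genes was not found to differ between diabetic and healthy rats. The difference between HP over DM and NH over NC was called for 0 of 7 ND genes in edgeR, with 0 at an unadjusted p under 0.05 and 0 in limma, beside 10.3% of all features. For ND5 this difference was -0.01 (SE 0.133), for ND4L 0.07 (SE 0.139), for ND2 0.28 (SE 0.139, adjusted p = 0.192) and for ND4 -0.25 (SE 0.195, adjusted p = 0.454). The standard errors leave room for differences as large as some of the effects themselves. HP compared with NH, both at the high dose as labelled, gave 0 of 7 ND genes (0 at an unadjusted p under 0.05 and 0 in limma), beside 55.2% of all features, with ND5 at 0.11 (SE 0.094) and ND4 at -0.17 (SE 0.138).

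**Figure D3:**
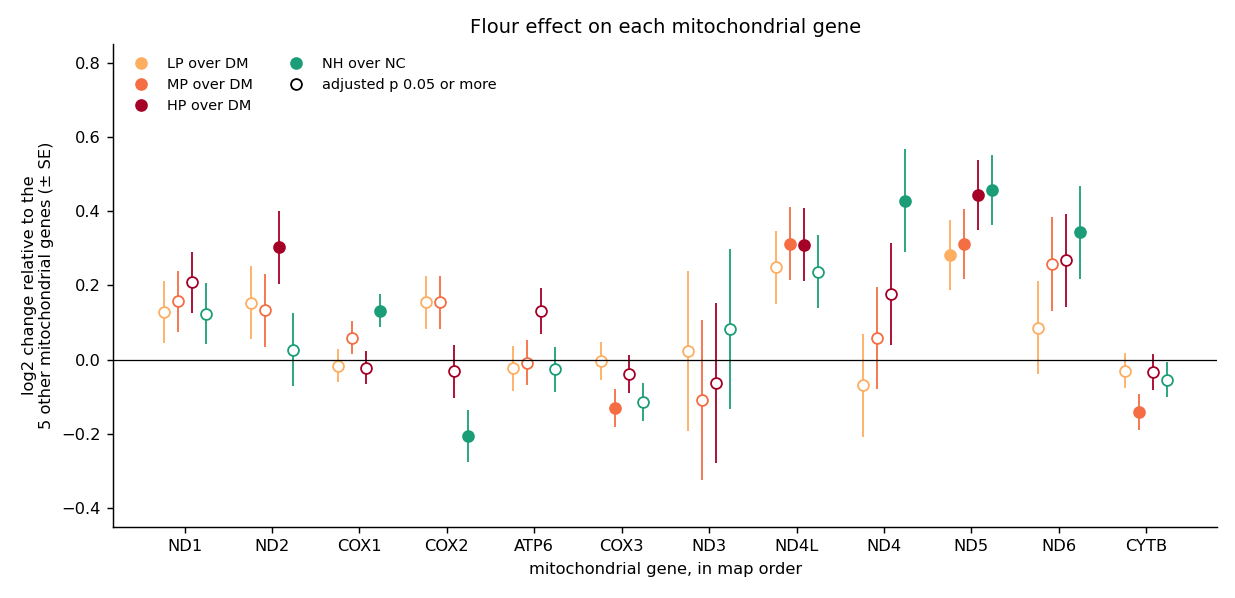
Change on the log2 scale (vertical axis, ± SE from edgeR) of the 12 mitochondrial genes in map order relative to the summed counts of COX1, COX2, COX3, ATP6 and CYTB, for each flour group over its water-fed group (n = 3 libraries each). Filled points passed an adjusted p of 0.05. ND5 is filled in all 4 comparisons, at 0.28, 0.31, 0.44 and 0.46, and LP, MP and HP share their DM libraries.

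Over dose in the diabetic groups, from water to 4 g per kg, ND5 was the 1 ND gene with a slope that passed, at 0.098 log2 units per g per kg (SE 0.027, edgeR adjusted p = 0.0222), beside 17.2% of all features. Much of its rise was already present at 1 g, where ND5 stood at 3.64% against 2.99% without flour. The slope lost its call without any 1 DM library or without HP replicate 1, and it was 0.07 (adjusted p = 0.245) with replicate 1 of every group left out. ND2 had a slope of 0.07 (SE 0.023, adjusted p = 0.0589), and ND3 of -0.02 (SE 0.050).

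Replicate 1 was left out of every group as a check, since it was the highest library for 6 of 7 ND genes in NH and for 5 of 7 in LP, MP and HP, but for 3 in DM and 1 in NC. ND5 then still rose by 0.27 in LP (edgeR adjusted p = 0.0136), 0.27 in MP (0.0142), 0.33 in HP (0.0124) and 0.34 in NH (0.0031). ND4L in MP (0.24, adjusted p = 0.0703) and HP (0.25, adjusted p = 0.109), ND2 in HP (0.20, adjusted p = 0.0643) and ND4 in NH (0.25, adjusted p = 0.187) lost their calls.

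The ratios of ND5 to ND1 and to ND2, which use no gene outside complex I, also separated flour-fed from water-fed libraries. ND5 counts were 0.367, 0.370 and 0.408 times those of ND1 in NC and 0.424, 0.407 and 0.396 times in DM. With flour the ratio was 0.479, 0.503 and 0.460 in NH, 0.476, 0.432 and 0.457 in LP, 0.449, 0.458 and 0.458 in MP, and 0.502, 0.492 and 0.446 in HP. No flour-fed library fell to the level of a water-fed one. ND5 over ND2 divided the libraries in the same way, with 0.352 to 0.385 in NC, 0.433 to 0.440 in DM and 0.457 to 0.544 in the 12 flour-fed libraries. These were the 2 of 21 ND pairs whose flour-fed and water-fed libraries did not overlap, beside 4.19% of all 406 pairs. The 2 shares are not on an equal footing. A ratio that separates all diabetic from all healthy libraries cannot also separate flour-fed from water-fed ones. No ND pair separated by diabetes, whereas features such as Gpx3 and Pck1 did so against the other mitochondrial counts.

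In the same exact permutation test 5 of the 21 ND pairs passed, beside 43.1% of all pairs. ND1 fell relative to ND5 by 0.26 and ND2 relative to ND5 by 0.29 on the log2 scale (two-sided exact permutation, adjusted p = 0.0033 each over 406 pairs). ND1 fell relative to ND4L by 0.12 and ND2 relative to ND4L by 0.15 (adjusted p = 0.0227 each), and ND5 rose relative to ND6 by 0.13 (adjusted p = 0.0303). ND4L over ND6 differed by -0.01 (adjusted p = 0.908). Without NC replicate 2 or without DM replicate 2, 3 pairs passed.

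**Figure D4:**
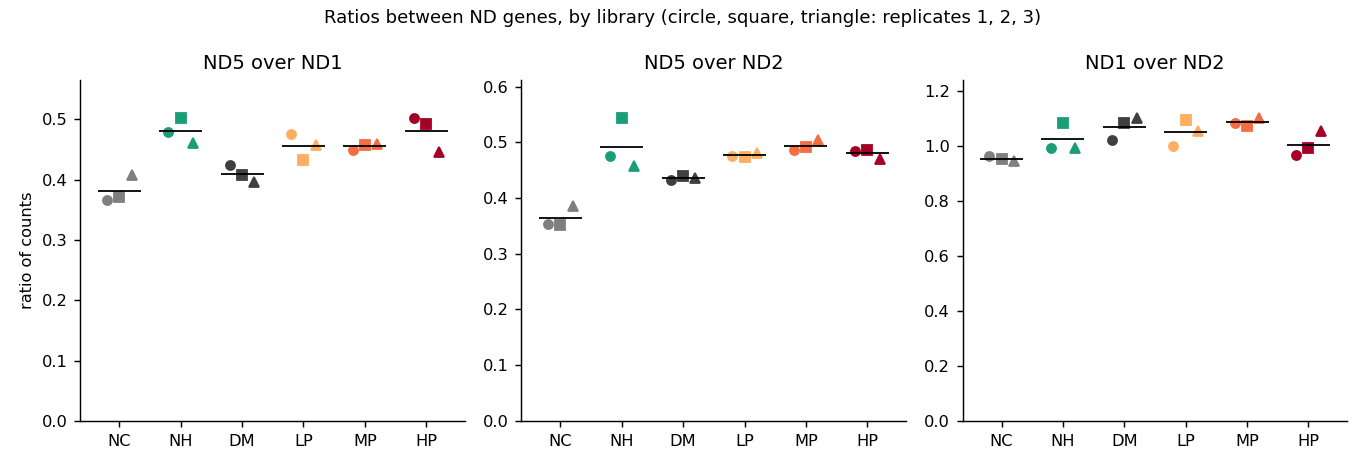
Ratio of counts (vertical axes from 0) of ND5 to ND1, ND5 to ND2 and ND1 to ND2 in each library, with lines at the means of 3 libraries. For ND5 over ND2 the water-fed groups NC and DM lie at 0.440 or less and the flour-fed groups at 0.457 or more, and ND1 over ND2 is lowest in NC.

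No ND gene passed between diabetic and healthy rats when set against the other mitochondrial genes. Between the 12 diabetic and 6 healthy libraries 0 of 7 ND genes passed a two-sided exact permutation test of this ratio, with 0 at an unadjusted p under 0.05, while 55.2% of all features passed. ND5 differed by 0.15 (adjusted p = 0.262) and ND2 by -0.01 (adjusted p = 0.923). Flour was fed in 9 of the 12 diabetic but 3 of the 6 healthy libraries. With the labels permuted within water-fed and within flour-fed libraries, a test added after the data had been seen, 0 of 7 ND genes passed again (0 at an unadjusted p under 0.05), beside 58.6% of all features. In edgeR DM over NC also gave 0 of 7 ND genes (0 at an unadjusted p under 0.05 and 0 in limma), beside 55.2% of all features, and 1 gene with replicate 1 of every group left out. ND2 stood at 6.86 ± 0.169% in DM and 7.59 ± 0.158% in NC (SD, n = 3), and its change was -0.15 (SE 0.098, adjusted p = 0.251). ND2 lay lower in every DM library than in any NC library, and ND3 and ND5 lay higher in every DM library, so that 3 of 7 ND genes had no overlap, beside 27.6% of features. With 3 libraries against 3 the smallest two-sided exact permutation p is 0.1.

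Of 21 ND pairs, 3 differed between diabetic and healthy libraries, beside 72.2% of all pairs. ND1 rose relative to ND2 by 0.09 (two-sided exact permutation, adjusted p = 0.0254), ND5 rose relative to ND4 by 0.23 (adjusted p = 0.0490) and ND4 fell relative to ND6 by 0.22 (adjusted p = 0.0463). Both pairs with ND4 used its uncertain counts alone, and their ratios were not tested with the unnamed feature added. ND1 over ND2 averaged 0.953 ± 0.0095 for NC and 1.02 ± 0.052 for NH among healthy rats. Among diabetic rats it averaged 1.07 ± 0.041 for DM, 1.05 ± 0.047 for LP, 1.09 ± 0.015 for MP and 1.00 ± 0.045 for HP (SD, n = 3 throughout). Permuted within feed, 1 of the 21 ND pairs passed, ND1 over ND2 (0.10, exact permutation, adjusted p = 0.0385), beside 76.1% of all pairs. ND5 over ND4 (0.16, adjusted p = 0.160) and ND4 over ND6 (-0.18, adjusted p = 0.116) then lost their calls. In the test over all libraries, without NC replicate 1 or NC replicate 2 no ND pair passed, and without LP replicate 1 or 3, HP replicate 1 or 2 or any 1 MP library 1 pair did.

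ND4 changed its reading when the unnamed feature was counted with it. ND4 alone held 57772, 70129 and 54065 counts in NC and 101533, 73976 and 84496 in NH. The unnamed feature held 111700, 93480 and 113316 counts in NC and 140919, 69674 and 129526 in NH. The feature exceeded ND4 in NC and did not in NH replicate 2, and over 18 libraries its count was between 0.719 and 2.17 times that of ND4. ND4 took 31.5% of the sum of both in MP replicate 1 and 58.2% in LP replicate 1. The sum was 2.48 ± 0.0662% of the other mitochondrial counts in NC and 2.79 ± 0.641% in NH (SD, n = 3), where ND4 alone had been 0.904 ± 0.151% and 1.22 ± 0.203%.

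With both counted together, ND4 differed by 0.17 in NH over NC (SE 0.180, edgeR adjusted p = 0.422), so its call there was lost. HP over DM gave 0.35 (SE 0.181, adjusted p = 0.104), LP over DM -0.03 (SE 0.180) and MP over DM 0.20 (SE 0.180). In DM over NC the sign turned, from 0.08 for ND4 alone to -0.14 (SE 0.180, adjusted p = 0.512) for the sum. Per base of ND4 the sum reached 119 to 123 counts in NC and 43.3 to 61.1 in DM, which is above ND5 in NC and near it in DM.

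**Figure D5:**
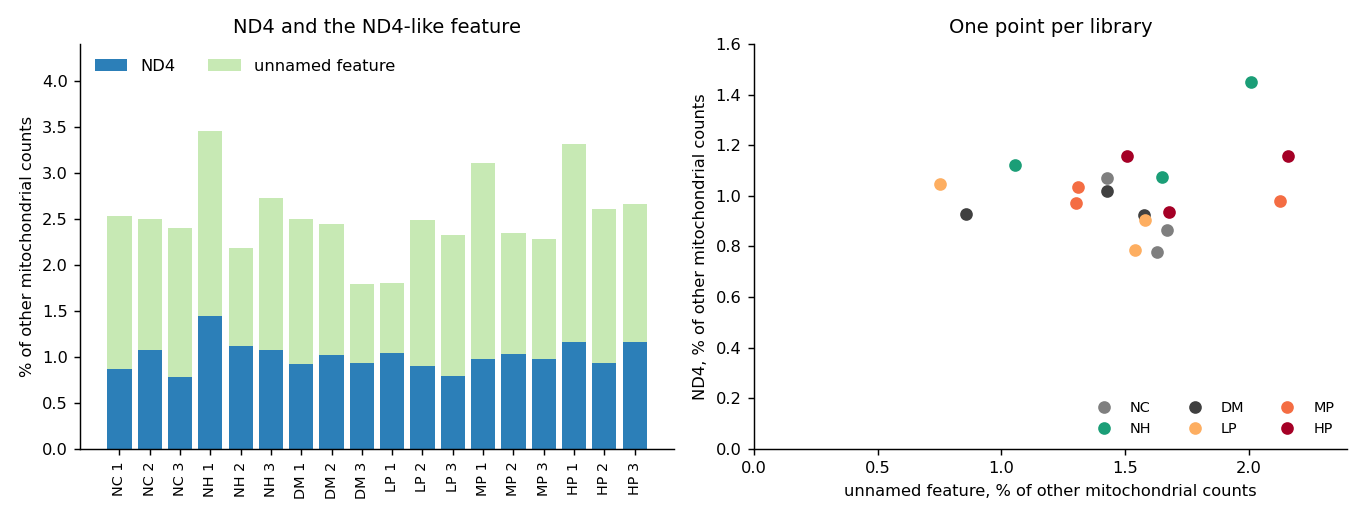
ND4 and the unnamed chromosome 20 feature as percents of the summed counts of the 5 other mitochondrial genes, stacked by library on the left and plotted against each other on the right with 1 point per library. ND4 takes between 31.5 and 58.2% of the sum of both, and NH replicate 1 is the highest library for ND4.

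Summed over the 7 genes, ND counts made up a larger share of the 12 mitochondrial genes' counts in the flour-fed groups, described here without a test. The share was 17.5 ± 0.291% in NC and 17.4 ± 0.186% in DM, against 19.2 ± 1.57% for NH, 19.0 ± 0.550% for LP, 19.1 ± 0.881% for MP and 20.2 ± 1.72% for HP (SD, n = 3). NH replicate 1 reached 20.9% and HP replicate 1 22.2%, while NH replicate 2, at 17.9%, stood close to the highest NC library at 17.8%. The 95% Wilson interval of a share was narrow, 22.1 to 22.2% in HP replicate 1, and covers counting error only. Without ND4L and ND6, the short genes in the overlaps, the shares were 16.3% in NC, 16.2% in DM, 17.8% in NH, 17.6% in LP, 17.7% in MP and 18.8% in HP.

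The ND genes were not all alike in how they varied. Likeness was measured as the SD of the log2 ratio of 2 features over 18 libraries, a smaller SD meaning more alike. ND1 and ND2 were closest (0.0786), followed by ND1 and ND4L (0.0885) and by ND2 and ATP6, a subunit of ATP synthase (0.0899). ND4L was next closest to ND6 (0.104), and ND5 to ND6 (0.109) and ND4L (0.121). ND4 was closest to ND1 (0.195) and ND2 (0.203), and ND3 to COX3 (0.237) and COX1 (0.241), which are subunits of cytochrome c oxidase. Within the ratio to the other mitochondrial genes, ND5 and ND6 correlated at r = 0.874 over 18 libraries and ND1 and ND5 at 0.861, whereas ND3 had a negative r with each of the other ND genes (-0.497 to -0.170). These libraries share their reference counts and groups, and the values describe them.

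Other respiratory genes passed in some of the same comparisons. Of the 5 other mitochondrial genes, which are themselves in the reference, 0 passed in edgeR in LP over DM (1 at an unadjusted p under 0.05) and 0 in HP over DM (1 at an unadjusted p under 0.05). In MP over DM 2 fell, CYTB by 0.14 and COX3 by 0.13, and with the replicate block COX2 passed as well, rising by 0.15 (adjusted p = 0.0435). In NH over NC 1 rose, COX1 by 0.13, and 1 fell, COX2 by 0.21. In DM over NC 1 rose, COX1 by 0.13, and 1 fell, COX2 by 0.26. Atp5f1b, the beta subunit of ATP synthase and the 1 listed nuclear gene of the respiratory chain and ATP synthase, rose by 1.56 in DM over NC (adjusted p = 6.2e-07), fell by 0.47 in HP over DM (adjusted p = 0.0348) and differed by -0.39 in NH over NC (adjusted p = 0.0541).

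Scaled over all 29 features by TMM instead, which moves with the balance of mitochondrial and nuclear counts, the ND calls were partly different. In DM over NC 1 of 7 fell (ND2, by 0.28, SE 0.091, edgeR adjusted p = 0.0162), beside 55.2% of features called in either direction (14 higher, 2 lower). LP and MP each had 2 higher (ND4L and ND5), beside 27.6% (6 higher, 2 lower) and 44.8% (6 higher, 7 lower). HP had 3 higher (ND2, ND4L and ND5), beside 37.9% (3 higher, 8 lower). NH over NC had 5 higher (ND1, ND4L, ND4, ND5 and ND6), beside 51.7% (6 higher, 9 lower). HP over NH had 2 lower (ND4L and ND4), beside 75.9% (16 higher, 6 lower). The difference of the effects gave 0 (0 at an unadjusted p under 0.05, 0 in DESeq2 and 0 in limma), beside 3.45%, and the slope gave ND5, beside 17.2%. ND2 in DM over NC lost its call without DM replicate 2 (adjusted p = 0.0666), and ND5 in HP over DM with only those groups fitted (0.52, adjusted p = 0.0557) or with replicate 1 of every group left out (0.11, adjusted p = 0.501).

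With 4 scalings (TMM, median-of-ratios factors, the nuclear genes' geometric mean and unscaled counts) the median change of all 29 features in DM over NC was 0.10, -0.31, -1.28 and -0.84, and in HP over NH 0.71, 0.13, -0.68 and 0.20. ND5 in HP over DM and in NH over NC, ND2 and ND4L in HP over DM, ND4 in NH over NC, ND2 in DM over NC, ND4L and ND4 in HP over NH and the ND5 slope passed in the same direction under all 4. Over the 4 scalings the sign of the change turned for 2 of 7 ND genes in DM over NC, 6 in LP over DM, 2 in MP over DM, 1 in HP over DM, 0 in NH over NC and in HP over NH, 7 in the difference of the effects and 1 in the slope. ND4L in LP over DM was 0.24 under TMM and turned to -0.012 with the nuclear scaling. With ND4 and the unnamed feature summed, TMM gave 0 ND calls in DM over NC, LP over DM, MP over DM and HP over DM, and 7 in HP over NH.

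Beside these results, markers of the proximal tubule moved between groups. The 6 listed markers of this segment reported here were Slc34a1, Miox, Pck1, Gpx3, Hao2 and Slc3a1, and none of the markers of 8 other lists (other tubule segments, podocytes, endothelium, immune cells, fibroblasts, red cells and liver) is among the listed features. The summed counts of the 6 genes were 3.32 to 3.69% of the other mitochondrial counts in NC, 2.65 to 3.31% in NH and 8.84 to 9.74% in DM. In LP they were 16.4 to 17.9%, in MP 13.4 to 15.9% and in HP 6.34 to 8.55%. This sum was lower with flour in NH and HP and higher in LP and MP, while ND5 was higher in all of these. The markers did not move together. Between flour and water, Pck1 differed by 0.41 on the log2 scale, Gpx3 by 0.29 and Slc34a1 by 0.09. Hao2 differed by -0.33, Slc3a1 by -0.33 and Miox by -0.22. Of these only Slc3a1 passed (exact permutation, adjusted p = 0.0198). The sum therefore does not stand for the proximal tubule as a whole, and its part in the ND results was not tested.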

How the data were processed

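Kidney RNA of 18 rat libraries was analysed, 3 per group as labelled. Libraries were made from 1 µg RNA with the NEBNext Ultra kit, which does not mark strand, per the labels' protocols. CASAVA 1.7, Bowtie 0.12.2 and mm8 appear without a role in the submitters' processing notes. The sources used here do not name the rat build, the counter or the multi-mapping setting. The deposited values are read as raw counts, since all 522 are whole (tolerance 0) although the table is titled as FPKM. Gene positions and lengths were used as the authors deposited them. Listed counts summed to 4440262 to 10306858 per library, which is not depth, and single counts lay between 10521 and 3382727.

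Differences were tested with edgeR 4.0.16 in R 4.3.3 (quasi-likelihood F test, no filter, 1 fit over all libraries or over the 12 diabetic ones for the slope), adjusted by Benjamini-Hochberg over 29 features with a threshold of 0.05. A log2 change divided by the root of its F value gave its SE. Library size was either the summed counts of the 5 other mitochondrial genes or TMM-scaled. DESeq2 1.42.0, limma 3.58.1 on log2 values (pseudocount 1 under TMM), other scalings and references, a replicate block and each library left out were alternatives. Ratios were compared by exact permutation over 18564 or, within health status or feed, 4400 splits. The scripts were tested on simulated data.

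The genes, lists and tests were chosen with earlier results of these data known. The text names all ND genes and the 2 features most alike to each, with other respiratory genes as counts and the largest changes. Replicate libraries differed beyond sampling noise (chi-square per degree of freedom of 104 or more), but the labels do not tie each to an animal of its own, and p-values then cover only the spread of these libraries, which may be technical. Same-numbered libraries deviated together with r over 0.1 for all 3 numbers in DM and MP (0.684, 0.465 and 0.733), and in no other pair of groups compared here. NH and HP, which are compared, fell just short (0.897, 0.527 and 0.0921). MP and HP, not compared here, also had r over 0.1 for all 3 numbers (0.881, 0.807 and 0.149), while LP and MP had -0.749, -0.885 and -0.406. The labels state no pairing, and these correlations do not establish one. A marker of the proximal tubule list is not reported here and is left out of the marker sum.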

Additional observations from a re-analysis of the deposited data

How the results depend on the processing

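Relative to the other mitochondrial genes, ND5 in HP over DM and in NH over NC kept its direction and call under every alternative run (other references, limma, replicate block, ND4 summed with the unnamed feature, each library or replicate 1 of every group left out). Other counts of ND genes called relative to those genes were less steady. Without the COX genes in the reference they became 2 in LP, 4 in MP, 5 in NH and 0 for the slope. With the geometric mean as reference they became 4 in HP, 4 in NH and 2 for the slope. ND4 summed with the unnamed feature gave 4 in HP and 2 in NH. Replicate 1 left out of every group gave 1 in DM over NC, 1 in HP and 0 for the slope. With the replicate block 2 were called in LP, 3 in MP, 5 in HP, 4 in NH and 2 for the slope. By the labels, same-numbered libraries share only a number: 21 of 45 same-numbered pairs had r over 0.1, and 0 of 18 libraries correlated best with its own number in every other group. Replicate 1 stood out, with r from 0.438 (DM and HP) to 0.897 (NH and HP) in every pair among NC, NH, DM, MP and HP. LP replicate 1 ran the other way, from -0.749 with MP to -0.461 with HP. What lies behind this was not tested. With 1 library left out, the counts ran from 0 to 0 in LP, 0 to 2 in MP, 1 to 5 in HP, 1 to 4 in NH, 0 to 1 in HP over NH and in the difference of the effects, and 0 to 4 for the slope.

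Under TMM, the count in DM over NC (1) became 6 with median-of-ratios factors or DESeq2, 7 with nuclear scaling, unscaled counts or only the compared groups, and 0 with ND4 summed with the unnamed feature or replicate 1 left out of every group. LP (2) became 0 with nuclear scaling, unscaled counts, ND4 summed or replicate 1 left out, and 1 with only the compared groups. MP (2) became 0 with nuclear scaling, ND4 summed or replicate 1 left out, 3 with median-of-ratios factors or DESeq2, and 4 unscaled. HP (3) became 6 with nuclear scaling or unscaled, and 0 with only the compared groups, ND4 summed or replicate 1 left out. NH (5) became 7 with median-of-ratios factors, nuclear scaling or DESeq2, 4 with only the compared groups, 2 unscaled and 3 with ND4 summed. HP over NH (2) became 7 with median-of-ratios factors, nuclear scaling, unscaled counts, DESeq2 or ND4 summed, 6 with replicate 1 left out and 1 with only the compared groups, which also gave 3 for the difference of the effects. The slope (1) became 2 with median-of-ratios factors or ND4 summed, 3 with DESeq2, 6 with nuclear scaling or unscaled, and 0 with replicate 1 left out. With 1 library left out the counts ran from 0 to 6 in DM over NC, 0 to 1 in LP, 0 to 3 in MP, 1 to 4 in HP, 2 to 5 in NH, 0 to 7 in HP over NH and 0 to 5 for the slope.

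The summing of ND4 with the unnamed feature, the omission of replicate 1, the comparison of flour with water and the permutation within feed were chosen after seeing the data. Over the 4 scalings, the changes of 0 (NH over NC, HP over NH) to 7 (difference of the effects) of 7 ND genes turned sign, and 6 did in LP over DM. Of changes called or followed singly, those that turned were ND4L in LP over DM to -0.012 (nuclear scaling), ND2 in HP over DM to -0.016 (TMM, replicate 1 left out), and ND4 with the unnamed feature added to -0.14 in DM over NC, 0.039 in HP over NH and 0.18 in the difference of the effects. With 1 library left out, the changes of ND4 ran from -0.016 to 0.22 in DM over NC and -0.18 to 0.026 in LP over DM, and those of ND5 from -0.020 to 0.20 in HP over NH and -0.14 to 0.081 in the difference of the effects. ND pairs that differed between diabetic and healthy libraries numbered 1 when permuted within feed and 0 to 4 with 1 library left out, ND genes that differed between flour and water 2 to 5, and ND pairs 3 to 6. The ND share of mitochondrial counts without ND4L and ND6 was 16.3% in NC, 16.2% in DM, 17.6% in LP and 17.7% in MP, lower because fewer genes were summed. The other causes were not tested. Counting error is small at these counts, and the depth of the libraries is unknown.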
